A study of Rattus norvegicus with 18 samples.

Results

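The tumor necrosis factor (TNF) ligands and receptors examined in rat cerebral cortex after subarachnoid hemorrhage (SAH) are 9 genes, chosen by their symbols from the 30735 genes in the deposited count file. They are the ligands Tnf and Tnfsf10 and the receptors Tnfrsf1a, Tnfrsf1b, Tnfrsf12a, Cd40, Ltbr, Tnfrsf9 and Fas. These genes and the wider gene lists below were chosen with earlier results of these data known. Their counts set beside shares of all tested genes are descriptive only. Each symbol had 1 row, and all 9 genes passed the filter on low counts that kept 18444 genes for testing. SAH was produced in adult Sprague Dawley rats by advancing a filament inside the internal carotid artery until it perforated the vessel wall. The sham rats received the same anesthesia and neck surgery without the perforation, so surgery is shared by all groups. Each group held 6 rats with 1 RNA library per rat, and SAH rats were sampled 1 day (SAH 1d) or 7 days (SAH 7d) after the bleed. Neither the labels nor the methods state the sex of the rats or when sham rats were sampled. The paper describes the cortex of the operated side, whereas the labels describe both sides and name mice, although gene identifiers are from the rat annotation.

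TNF family ligands are membrane proteins, some of them released by proteases, and they act by clustering receptors on the target cell. Receptors with a death domain, such as TNFR1 and FAS, can recruit either a complex that turns on the transcription factor NF-kB or one that activates caspase-8. Receptors without a death domain, such as TNFR2, FN14, CD40, the lymphotoxin beta receptor and 4-1BB, bind TRAF adaptors instead and also lead to NF-kB. In the brain, TNF is made mainly by microglia and infiltrating myeloid cells after injury, and its receptors are found on glia, endothelium and neurons.

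Library totals lay between 27270026 and 38271014 counts, with a median of 30711729.5. Levels are given below as CPM, counts scaled to library size after TMM normalization, and as FPKM, which also divides by transcript length, wherever genes are compared with each other. Neuron markers were well expressed in every library, with 5 markers summing to between 2020 and 8386 CPM. SAH 1d-3 and SAH 7d-5 stood apart from the other libraries of their groups. Rats are numbered here as in the column headers, and whether the study numbers the same rats in this way elsewhere was not settled. The 5 monocyte and macrophage markers found (Cd14, Mrc1, Cd163, Ms4a7 and Lyz2) summed to 8218 CPM in SAH 7d-5 and to 251.3 CPM or less in the other SAH 7d libraries. They summed to 620.5 CPM in SAH 1d-3 and to 129.2 CPM or less in the rest of SAH 1d. SAH 7d-5 also had the highest microglia and meningeal fibroblast marker sums of its group, at 1746 and 2111 CPM, and the lowest neuron sum. Its T cell marker sum of 250.2 CPM came almost wholly from Cd8a, at 243.4 CPM, while Cd3d was at 0.514, Cd3g at 1.51, Cd3e at 2.0 and Lck at 2.78 CPM. SAH 7d-5 was the highest library of its group for 8 of the 9 TNF family members and SAH 1d-3 for 6 of 9, so the results are given with and without these libraries.

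To show the DNA in front of members, the 250 bases upstream of the transcription start were read from the RefSeq annotation. Its build, GRCr8, is not the build of the count file. RefSeq promoters were matched by symbol for 8 of the 9 members, and Cd40 was not among them. Promoters of Tnf and Tnfrsf12a are printed because these genes had the largest changes at 1 day, and those of Tnfrsf1b and Fas because they hold an AP-1 motif. Each runs 5′ to 3′ on the strand of its gene, and capitals mark every match of the motifs named after the sequences.
Tnf, chr20:3626435-3626684, plus strand: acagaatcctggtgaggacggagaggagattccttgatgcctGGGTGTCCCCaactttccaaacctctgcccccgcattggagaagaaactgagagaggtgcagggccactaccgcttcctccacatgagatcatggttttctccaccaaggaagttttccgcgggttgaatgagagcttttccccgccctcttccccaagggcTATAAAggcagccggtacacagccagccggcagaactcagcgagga
Tnfrsf12a, chr10:13213649-13213898, minus strand: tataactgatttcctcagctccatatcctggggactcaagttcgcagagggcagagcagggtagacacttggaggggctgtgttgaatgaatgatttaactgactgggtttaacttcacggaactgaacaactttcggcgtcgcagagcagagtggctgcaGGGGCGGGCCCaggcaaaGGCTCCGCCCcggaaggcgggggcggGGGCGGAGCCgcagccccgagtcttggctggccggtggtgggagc
Tnfrsf1b, chr5:162387412-162387661, minus strand: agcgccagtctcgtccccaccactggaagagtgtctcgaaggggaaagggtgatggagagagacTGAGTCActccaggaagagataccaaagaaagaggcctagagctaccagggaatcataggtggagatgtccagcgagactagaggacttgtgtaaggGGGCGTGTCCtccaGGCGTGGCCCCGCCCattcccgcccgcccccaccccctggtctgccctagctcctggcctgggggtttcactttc
Fas, chr1:241211905-241212154, plus strand: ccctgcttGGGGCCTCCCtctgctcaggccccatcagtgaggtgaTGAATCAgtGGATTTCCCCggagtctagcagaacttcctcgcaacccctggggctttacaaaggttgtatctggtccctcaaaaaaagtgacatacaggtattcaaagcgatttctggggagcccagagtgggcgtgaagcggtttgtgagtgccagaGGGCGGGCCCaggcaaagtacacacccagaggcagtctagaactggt

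The motifs were searched on both strands. Tnfrsf1b and Fas were printed because they hold an AP-1 motif, so the printed promoters do not stand for all 8. A loose NF-kB pattern, GGG and CC with 5 bases of any kind between them, lay in 5 of the 8 members' promoters (Tnf, Tnfrsf1b, Tnfrsf12a, Fas and Ltbr) and in 42.3% of 33469 rat promoters of the same length. In the Tnf promoter it was GGGTGTCCCC, 208 bases before the start. Tnfrsf12a and Tnfrsf1b each held overlapping matches close to the start, made largely of G and C. The AP-1 pattern TGANTCA was found in 2 of 8, in Tnfrsf1b as TGAGTCA and in Fas as TGAATCA, against 6.34% of all promoters. Only Tnf of the 8 held TATAAA, 46 bases before the start, a pattern present in 12.9% of all promoters. These matches describe the letters in these windows and no binding was measured.

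At 1 day after SAH, 7 of the 9 TNF family members were higher than in sham: Tnf, Tnfrsf1a, Tnfrsf1b, Tnfrsf12a, Cd40, Ltbr and Fas. All 7 passed an adjusted p of 0.05 in edgeR's quasi-likelihood test with a log2 fold change of at least 1, which is the definition of a DEG here. Among all tested genes, 14.9% were called higher at that threshold and 5.57% were DEGs that rose. The 2 groups did not overlap for 6 of the 9 members, all with SAH 1d higher, compared with 7.89% of all tested genes. The median log2 fold change was 1.45 over the 9 members and 0.01 over all tested genes. The TRAIL ligand gene Tnfsf10 and the 4-1BB receptor gene Tnfrsf9 did not pass the test. In bulk tissue, a change in the number of cells of a type cannot be told apart from a change in RNA per cell.

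**Figure D1:**
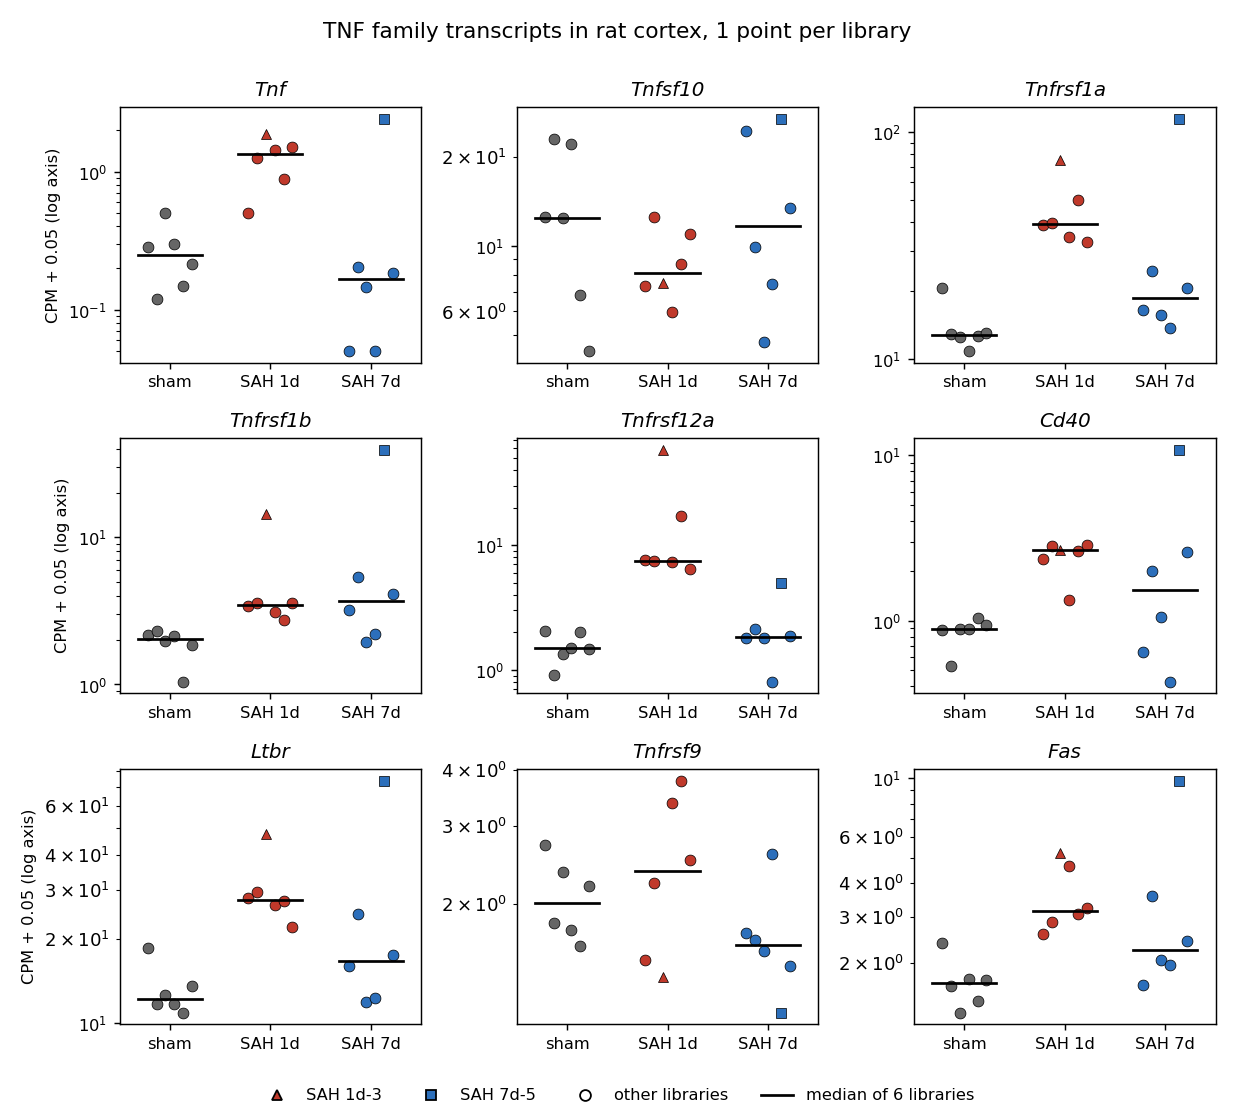
Level of each of the 9 TNF family transcripts in CPM (plus 0.05, log axis) in sham, SAH 1d and SAH 7d cortex, with 1 point per library and a line at the median of 6. The SAH 1d points lie above all sham points for Tnfrsf1a, Tnfrsf1b, Tnfrsf12a, Cd40, Ltbr and Fas, and SAH 7d-5 (square) is the highest SAH 7d point in 8 of 9 panels.

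Tnf (ENSRNOG00000055156), which encodes the founding cytokine of the family, was scarce in sham cortex at 0.0691, 0.199 and 0.455 CPM for the lowest, median and highest library, or 2 to 12 counts. At SAH 1d it lay between 0.453 and 1.83 CPM with a median of 1.30, and 5 of 6 libraries exceeded every sham library. Its log2 fold change was 2.49 (SE 0.44, n = 6 per group, edgeR adjusted p = 0.00197), or 5.62-fold. The exception was SAH 1d-1, which fell just below the highest sham library. Tnfsf10 (ENSRNOG00000013269), the ligand TRAIL that engages death receptors, ranged from 4.36 to 22.9 CPM in sham with a median of 12.4. At SAH 1d it ranged from 5.94 to 12.4 CPM with a median of 8.05. Sham libraries thus spread more widely than SAH 1d libraries, and the SAH 1d values all fell inside the sham range. The log2 difference was -0.62 (SE 0.35, 95% interval -1.31 to 0.07, edgeR adjusted p = 0.212).

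Tnfrsf1a (ENSRNOG00000031312), encoding TNFR1, the death domain receptor through which soluble TNF signals, was at 10.8, 12.7 and 20.5 CPM in the lowest, median and highest sham library. At SAH 1d the same values were 32.6, 39.3 and 75.4 CPM. Every SAH 1d library was above every sham library, and the log2 fold change was 1.73 (SE 0.22, edgeR adjusted p = 0.000212), or 3.31-fold. Tnfrsf1b (ENSRNOG00000016575) encodes TNFR2, which responds best to membrane-bound TNF. It ranged from 0.992 to 2.25 CPM in sham (median 2.0) and from 2.69 to 14.4 CPM at SAH 1d (median 3.43). Groups did not overlap, but SAH 1d-3 alone stood at 14.4 CPM while the next library was at 3.54. The log2 fold change was 1.45 (SE 0.42, edgeR adjusted p = 0.0224), and without SAH 1d-3 it was 0.79 with an adjusted p of 0.00984. The call was lost without sham-5, the lowest sham library, where edgeR gave an adjusted p of 0.0503, and in limma on log2(FPKM + 1) with no filter, which gave an adjusted p of 0.0733.

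Tnfrsf12a (ENSRNOG00000003546), which encodes FN14, the receptor for TWEAK, showed the largest change of the family. It lay between 0.864 and 2.0 CPM in sham (median 1.44) and between 6.40 and 58.1 CPM at SAH 1d (median 7.47). All SAH 1d libraries were above all sham libraries, with SAH 1d-3 far above the others and SAH 1d-5 second at 17.0 CPM. The log2 fold change of 3.53 (SE 0.59, edgeR adjusted p = 0.00138), or 11.6-fold, became 2.60 without SAH 1d-3 (adjusted p = 4.19e-05). The gene of its ligand, Tnfsf12, did not pass the test, at a log2 difference of 0.32 (SE 0.16, edgeR adjusted p = 0.155). It is named as the partner ligand, with its value already known.

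Cd40 (ENSRNOG00000018488), the costimulatory receptor of antigen-presenting cells, ranged from 0.484 to 0.992 CPM in sham and from 1.29 to 2.80 CPM at SAH 1d, with medians of 0.834 and 2.61. The groups were apart and SAH 1d-3, at 2.64 CPM, was not unusual for this gene. The log2 fold change was 1.56 (SE 0.23, edgeR adjusted p = 0.00073). Ltbr (ENSRNOG00000019264), the lymphotoxin beta receptor that feeds the noncanonical NF-kB route, had a median of 12.1 CPM in sham (10.9 to 18.6) and 27.6 CPM at SAH 1d (22.0 to 47.5). Every SAH 1d library again exceeded every sham library, by a log2 fold change of 1.20 (SE 0.18, edgeR adjusted p = 0.000838).

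Fas (ENSRNOG00000019142), the death receptor for FAS ligand, had a median of 1.64 CPM in sham (1.25 to 2.33) and 3.09 CPM at SAH 1d (2.53 to 5.15). Its groups did not overlap and its log2 fold change was 1.10 (SE 0.22, edgeR adjusted p = 0.00403), or 2.14-fold. Tnfrsf9 (ENSRNOG00000036942) encodes 4-1BB, a costimulatory receptor of activated lymphocytes. It ranged from 1.55 to 2.66 CPM in sham and from 1.32 to 3.74 CPM at SAH 1d. SAH 1d libraries lay on both sides of the sham range, 2 above it and 2 below, and the log2 difference was 0.25 (SE 0.27, 95% interval -0.27 to 0.77, edgeR adjusted p = 0.515). SAH 1d-3, the highest library for 6 other members, was the lowest of its group for Tnfrsf9.

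Leaving out SAH 1d-3 kept all 7 members called at 1 day, and the fold changes of Tnfrsf1b and Fas then dropped below the DEG size, to 0.79 and 0.96. When SAH 7d libraries were added and all 18 libraries shared 1 estimate of the spread in edgeR, 3 members stayed called (Tnfrsf1a, Tnfrsf12a and Ltbr). Fold changes were almost unmoved, and edgeR adjusted p was 0.075 for Tnf, 0.153 for Tnfrsf1b, 0.0861 for Cd40 and 0.0626 for Fas. In that fit the calls over all 18444 tested genes also fell, from 4684 to 2462.

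Cell type markers were read from the same comparison, where 14.9% of all tested genes were called higher and 10.5% lower. With lists this short, 1 called marker is not read as a change of that cell type. Monocyte and macrophage markers summed to 50.3 to 91.8 CPM in sham and 94.3 to 620.5 CPM at SAH 1d, with 3 of 5 called higher. Neutrophil markers summed to 1.92 to 5.07 CPM and 6.33 to 62.8 CPM, with 2 of 2 tested called higher and 3 of the 5 too low to test. Astrocyte markers summed to 2029 to 3717 CPM in sham and 4451 to 5617 CPM at SAH 1d, although only 1 of 5 was called higher and 1 was called lower. The mean of Gfap went from 362.9 to 2903 CPM and that of Aqp4 from 635.4 to 761.6 CPM. Means of Aldh1l1, Slc1a3 and Gja1 were lower at SAH 1d than in sham. All 5 neuron markers were called lower. For microglia 0 of 5 markers were called higher and 1 was called lower, with sums of 152.5 to 284.9 CPM and 158.0 to 247.2 CPM. Of T cell markers 1 of 3 tested was called higher, with sums of 3.31 CPM or less in sham and 4.74 CPM or less at SAH 1d. Of endothelial markers 1 of 4 was called higher, and of 4 choroid plexus markers 1, with sums up to 993.6 CPM in SAH 1d-6. No oligodendrocyte or meningeal fibroblast marker was called, and B cell markers were too low to test, at sums of 0.736 CPM or less. The part of these cell type differences in the TNF family changes was not tested.

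On the FPKM scale, Tnfrsf1a and Ltbr were the most abundant members in all 3 groups and Tnf the least. In sham the medians ran from Tnfrsf1a (5.62 FPKM), Ltbr (5.45), Tnfsf10 (2.90), Tnfrsf9 (1.41), Tnfrsf12a (1.36), Tnfrsf1b (0.627), Fas (0.595) and Cd40 (0.552) to Tnf (0.102). Among these neighbours, only Tnfrsf12a against Tnfrsf1b and Cd40 against Tnf had ranges that did not meet. At SAH 1d, Tnfrsf12a moved up to the third place at 7.96 FPKM, above the whole range of Tnfsf10, behind Tnfrsf1a at 18.9 and Ltbr at 13.3. At SAH 7d every neighbouring pair overlapped, Tnfrsf12a was back at 1.76 FPKM, and Tnf had a median of 0.0468 FPKM.

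The wider pathway was described by 6 lists with 91 genes, of which 77 were tested. At SAH 1d, 35 of the 77 were called higher and 1 lower, beside 14.9% and 10.5% of all tested genes. SAH 1d lay above sham without overlap for 25 of the 77, compared with 7.89% of all tested genes. Of the other TNF ligands 2 of 11 tested rose and the list's median log2 fold change was 0.32. They were Tnfsf18, encoding GITR ligand, with a log2 fold change of 4.83 (SE 1.08, edgeR adjusted p = 0.00693), and Tnfsf13b, encoding the B cell survival factor BAFF, with 2.09 (SE 0.40, adjusted p = 0.00283). Tnfsf18 was close to absent in sham, at 0.233 CPM or less, and at SAH 1d it reached 13.1 CPM in SAH 1d-3 with a median of 0.917. Without SAH 1d-3 its log2 fold change was 3.14. Of the other receptors 2 of 10 rose, Tnfrsf26 with 3.04 (SE 0.48, adjusted p = 0.00103) and Relt with 0.59 (SE 0.19, adjusted p = 0.0338), and the median was 0.26. Tnfrsf26 was at 2.31 without SAH 1d-3. The call of Relt was lost without SAH 1d-6, sham-1, sham-2, sham-3 or sham-5, with edgeR adjusted p of 0.0503 to 0.0756.

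Among receptor adaptors and kinases, 9 of 24 were called higher and 1 lower, beside 14.9% and 10.5% of all tested genes. The list's median log2 fold change was 0.46. Birc3, encoding the ubiquitin ligase cIAP2, rose most, with 3.33 (SE 0.60, edgeR adjusted p = 0.00215). Sham libraries held 0.265 to 1.30 CPM of Birc3 and SAH 1d libraries 2.11 to 27.6 CPM, without overlap, and the log2 fold change was 2.54 without SAH 1d-3. The initiator caspase gene Casp8 rose by a log2 fold change of 1.35 (adjusted p = 0.0216), which was 0.84 without SAH 1d-3 (adjusted p = 0.0209) and so below the DEG size. Smaller increases were found for Traf6 (0.76), the kinase gene Ripk1 (0.76), Map3k14, which encodes the NF-kB-inducing kinase (0.68), and the TNFR1 adaptor gene Tradd (0.66). The call of Tradd was lost without SAH 1d-2, SAH 1d-6, sham-3, sham-4, sham-5 or sham-6, with edgeR adjusted p of 0.05 to 0.0615. The member that was lower was Cyld, which encodes a deubiquitinase that restrains NF-kB, at -0.51 (SE 0.12, edgeR adjusted p = 0.00837). It was singled out after its value was seen.

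The NF-kB list stood higher, with 9 of 13 genes called higher beside 14.9% of all tested genes. Its median log2 fold change was 1.37. SAH 1d lay above sham without overlap for 8 of its genes, compared with 7.89% of all tested genes. Bcl3, a nuclear IkB protein gene, went from 0 to 0.899 CPM in sham to 4.19 to 17.2 CPM at SAH 1d, a log2 fold change of 4.55 (SE 0.58, edgeR adjusted p = 0.000246). Nfkb2 rose by 1.92, the inhibitor gene Nfkbia by 1.65, Relb by 1.64, Tnip2 by 1.51 and Nfkbiz by 1.38 on the log2 scale. Nfkbiz was called in 3 of the 12 fits with a library left out, those without SAH 1d-1, SAH 1d-4 or sham-1, and had edgeR adjusted p of 0.0557 to 0.0864 in the others. Both subunits of the noncanonical complex, Nfkb2 and Relb, were among the called genes. So were the other subunit genes Rel (1.37), Nfkb1 (0.83) and Rela (0.72), each without overlap between groups. Beside 14.9% of all tested genes, 3 of 5 genes for the shedding of TNF and its receptors were called higher. They were Rhbdf2 with a log2 fold change of 2.74 (SE 0.42, edgeR adjusted p = 0.000802), which encodes the iRhom2 partner of the TNF convertase, the convertase gene Adam17 with 0.66 (adjusted p = 0.0197) and Rhbdf1 with 0.57 (adjusted p = 0.0216).

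Of 14 genes known to be induced by TNF, 10 were called higher and 0 lower, beside 14.9% and 10.5% of all tested genes. The list median was 1.89. The 6 largest were the chemokine genes Cxcl1 (8.15) and Ccl2 (7.56), Lif (6.17), the cytokine signaling inhibitor gene Socs3 (5.10), Cxcl10 (4.10) and the adhesion molecule gene Icam1 (2.39), as log2 fold changes. The size for Cxcl1 rests on very low sham values, since its sham median was 0 and the highest sham library had 0.132 CPM, whereas SAH 1d libraries had 0.573 to 37.4 CPM. Ccl2 went from at most 0.533 CPM in sham to between 8.02 and 247.7 CPM, with SAH 1d-3 the highest library. Without SAH 1d-3 the log2 fold changes were 5.74 for Cxcl1, 5.89 for Ccl2, 4.49 for Lif and 4.12 for Socs3. For Cxcl1 it was 10.9 without sham-5, for Lif 6.83 without sham-3 and for Cxcl10 4.70 without sham-4. All of these remained called. These genes respond to many signals besides TNF, and which signal acted was not measured.

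**Figure D2:**
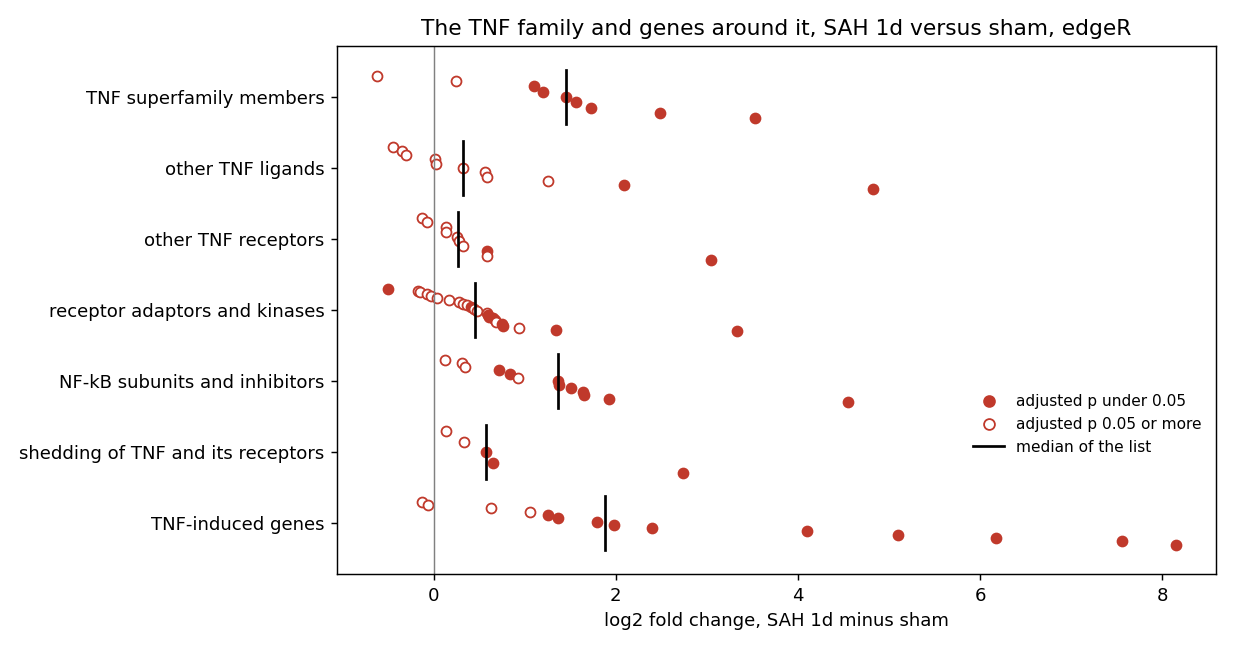
Log2 fold change of SAH 1d over sham for the 9 TNF family members and the tested genes of 6 further lists, 1 point per gene, filled where the adjusted p was under 0.05, with a line at the list's median. The members' median of 1.45 lies close to that of the NF-kB list (1.37), while the other ligands and receptors have medians of 0.32 and 0.26.

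At 7 days after SAH, 0 of the 9 TNF family members were called against sham in either direction. This comparison used the same 6 sham libraries as the one at 1 day. Its background is the same, since 0% of the 18444 tested genes were called by edgeR, with 2842 genes at an unadjusted p under 0.05. DESeq2 called 459 genes in this comparison but 0 members, giving no adjusted p for Tnf, Tnfrsf1a and Tnfrsf1b, edgeR on all 18 libraries called 9 genes, and limma on FPKM called 0. At an unadjusted p under 0.05, 5 of the 9 members were higher (Tnfrsf1a, Tnfrsf1b, Cd40, Ltbr and Fas), compared with 11.7% of all tested genes. The groups did not separate completely for any of the 9 members, compared with 0.797% of tested genes whose SAH 7d libraries were all above sham.

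The 7 day values were smaller without SAH 7d-5 for all of the receptors named next. That library was the highest of its group for each of them, so a smaller value was fixed in advance. Tnfrsf1b was at 1.90, 3.62 and 39.2 CPM in the lowest, median and highest SAH 7d library, where the highest was SAH 7d-5 and the next was at 5.34. Its log2 difference from sham was 2.33 (SE 0.73, 95% interval 0.89 to 3.76, edgeR adjusted p = 0.223), and 0.85 without SAH 7d-5. Of its 6 SAH 7d libraries, 4 exceeded every sham library. Cd40 ranged from 0.376 to 10.7 CPM with a median of 1.47, and 4 SAH 7d libraries were above and 1 below all sham libraries. The log2 difference was 1.83 (SE 0.70, 95% interval 0.46 to 3.20, edgeR adjusted p = 0.273), and 0.69 without SAH 7d-5.

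Tnfrsf1a ranged from 13.7 to 114 CPM at SAH 7d with a median of 18.4, and the other 5 libraries were at 24.4 CPM or less. Its log2 difference was 1.33 (SE 0.51, edgeR adjusted p = 0.273), and 0.41 without SAH 7d-5. Ltbr ranged from 11.8 to 73.8 CPM (median 16.7) with a difference of 0.99 (SE 0.42, edgeR adjusted p = 0.298), and 0.33 without that library. Both receptors thus had SAH 7d medians between those of sham and SAH 1d. Fas ranged from 1.60 to 9.74 CPM (median 2.18), with a log2 difference of 1.10 (SE 0.43, edgeR adjusted p = 0.275) that was 0.48 without SAH 7d-5.

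Tnf had 0 counts in SAH 7d-1 and SAH 7d-4, and 3 to 5 counts in SAH 7d-2, SAH 7d-3 and SAH 7d-6, while SAH 7d-5 held 78 counts, or 2.36 CPM. These 5 libraries were at 0.152 CPM or less, inside or below the sham range, and SAH 7d-5 was above every sham and SAH 1d library. The log2 difference from sham changed sign with that library, from 1.13 (SE 1.07, edgeR adjusted p = 0.568) to -1.37 without it (adjusted p = 0.481), so these data give no direction for Tnf at 7 days. Tnfrsf12a, the gene that rose most at 1 day, was at 0.753 to 4.96 CPM with a median of 1.79, near its sham median. Its log2 difference was 0.55 (SE 0.38, 95% interval -0.19 to 1.29, edgeR adjusted p = 0.456), and 0.14 without SAH 7d-5. Tnfsf10 ranged from 4.68 to 26.8 CPM, with a difference of 0.10 (SE 0.48), and Tnfrsf9 from 1.09 to 2.53 CPM, with a difference of -0.30 (SE 0.22). Neither passed the test, with edgeR adjusted p of 0.918 and 0.475, and for Tnfrsf9 SAH 7d-5 was the lowest library of its group.

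SAH 7d-5 was also the library with 8218 CPM of monocyte and macrophage markers, 243.4 CPM of Cd8a against 1.52 CPM or less in the other SAH 7d libraries, and 1746 CPM of microglia markers against 682.5 CPM or less. Its 5 neuron markers summed to 2020 CPM. The part of these cell types in the values of SAH 7d-5 was not tested. In the wider pathway 0 of 77 tested genes were called by edgeR at SAH 7d, against 0% of all tested genes. At an unadjusted p under 0.05, 31 of the 77 were higher, compared with 11.7% of all tested genes. DESeq2 called 9 of the 77, all higher, and 459 of all 18444 tested genes.

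**Figure D3:**
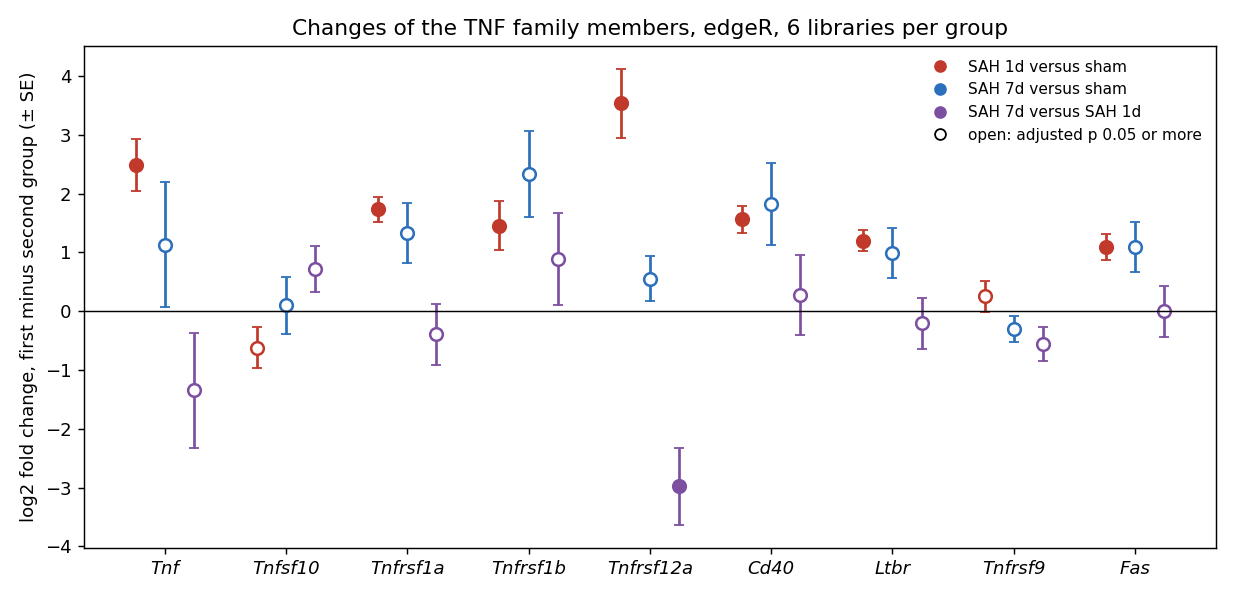
Log2 fold changes of the 9 members with standard errors from edgeR in SAH 1d versus sham, SAH 7d versus sham and SAH 7d versus SAH 1d, 6 libraries per group and filled where the adjusted p was under 0.05. In SAH 1d versus sham 7 members are filled, in SAH 7d versus sham 0, and in SAH 7d versus SAH 1d only Tnfrsf12a, at -2.98.

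Between SAH 1d and SAH 7d, Tnfrsf12a was the member that was called, and it was lower at 7 days. The comparison uses the same SAH libraries as those against sham and is not independent of them. Of all tested genes 1.08% were called lower and 0.282% higher. All 6 SAH 7d libraries, from 0.753 to 4.96 CPM, lay below all 6 SAH 1d libraries, from 6.40 to 58.1 CPM, a separation seen for 2.11% of tested genes. The log2 fold change was -2.98 (SE 0.66, 95% interval -4.26 to -1.69, edgeR adjusted p = 0.0457), with SAH 1d 7.88-fold higher. As the groups did not overlap, leaving out 1 library could not change the direction or the separation, so such fits are no test of them. The call did depend on single libraries. The edgeR adjusted p was 0.0532 to 0.117 without any 1 of SAH 1d-1, SAH 1d-2, SAH 1d-4, SAH 1d-5, SAH 1d-6, SAH 7d-1, SAH 7d-2, SAH 7d-3, SAH 7d-4 or SAH 7d-6. Without SAH 1d-3 it was 0.0339 and without SAH 7d-5 it was 0.0116. Cell type markers differed in this comparison too. All 5 microglia markers had a log2 difference above 0 (median 1.495), with 1 of them called higher (Tmem119). For 2 of them the SAH 7d libraries were all above SAH 1d, and the share of all tested genes separated in that direction is not given here. All 4 endothelial markers tested were below 0 (median -0.58), with 0 called and 1 whose groups did not overlap, and all 4 choroid plexus markers were below 0 with 0 called. Of the 2 neutrophil markers tested 0 were called and 1 had SAH 7d below SAH 1d without overlap, and all 4 meningeal fibroblast markers were above 0 (median 1.82) with 0 called. The part of these markers in the change of Tnfrsf12a was not tested.

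The other 8 members were not called with all 12 libraries, and their log2 differences ran from -1.35 for Tnf to 0.88 for Tnfrsf1b. SAH 7d-5 was set apart partly because it was the highest SAH 7d library for 8 of the 9 members. Leaving it out had to lower their SAH 7d values, so calls made without it are descriptive only. Without SAH 7d-5, the number of members called lower rose to 4. In that fit the share of all tested genes called lower also rose, from 1.08% to 5.22%. Tnf then had a log2 fold change of -3.88 (edgeR adjusted p = 0.00571), Tnfrsf1a of -1.33 (adjusted p = 0.00729), Ltbr of -0.88 (adjusted p = 0.0346) and Tnfrsf12a of -3.41. The same 4 genes were called with both SAH 1d-3 and SAH 7d-5 left out, where 7.52% of all tested genes were called lower, with -3.71 for Tnf, -1.12 for Tnfrsf1a, -0.70 for Ltbr and -2.48 for Tnfrsf12a. With all libraries kept, 5 of the 6 SAH 7d libraries were below every SAH 1d library for Tnf and for Tnfrsf1a, and 4 of 6 for Ltbr and Fas.

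The direction of Tnfrsf1b, Cd40 and Fas between the 2 times was not stable. Tnfrsf1b was 0.88 higher on the log2 scale at SAH 7d (SE 0.78, edgeR adjusted p = 0.645), -0.63 without SAH 7d-5 and 0.04 without both libraries. Cd40 was at 0.27 (SE 0.67, adjusted p = 0.894) and at -0.89 without SAH 7d-5, and Fas was at 0.00 (SE 0.43) and -0.64. The wide intervals, from -0.65 to 2.41 for Tnfrsf1b and from -0.85 to 0.85 for Fas, leave room for differences of either sign. For Tnfsf10 the difference was 0.72 (SE 0.39, adjusted p = 0.423) and for Tnfrsf9 it was -0.56 (SE 0.29, adjusted p = 0.406).

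**Figure D4:**
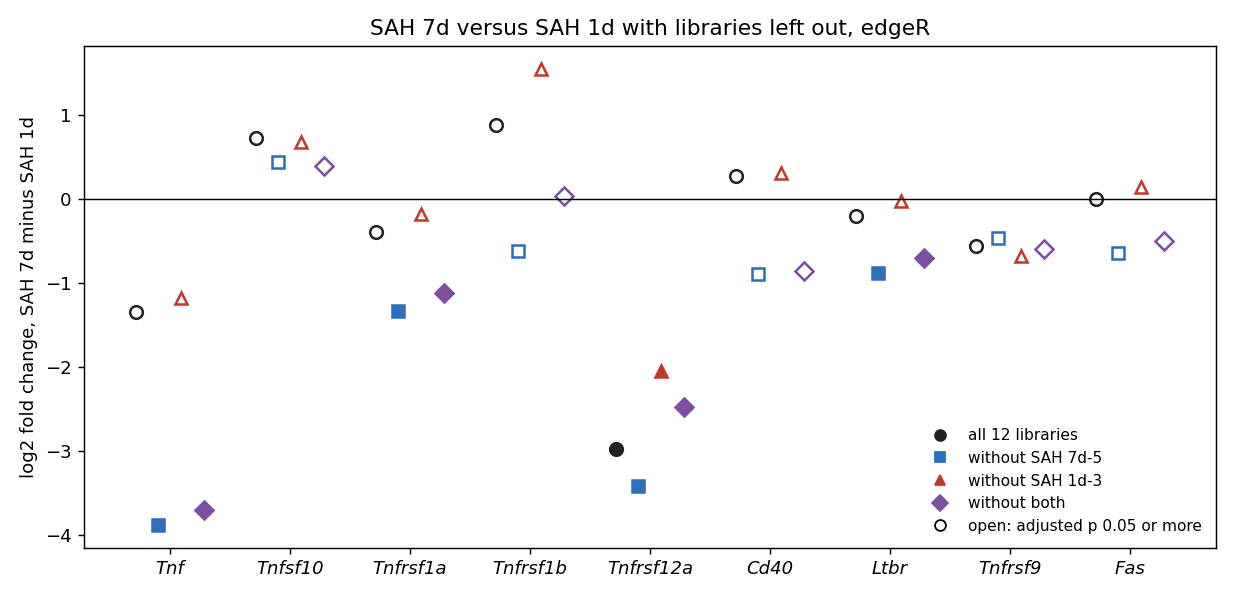
Log2 fold change of SAH 7d over SAH 1d for the 9 members with all 12 libraries, without SAH 7d-5, without SAH 1d-3 and without both, from edgeR, filled where the adjusted p was under 0.05. Tnfrsf12a is filled in all 4 settings shown, whereas Tnf, Tnfrsf1a and Ltbr are filled only where SAH 7d-5 is left out. The call of Tnfrsf12a was kept in only 2 of the 12 fits with 1 library left out, the 2 shown here.

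In the wider pathway, 2 of 77 tested genes were called between the times, both lower at SAH 7d. Among all tested genes 1.08% were called lower and 0.282% higher. Lif, an IL-6 family cytokine gene, was at 0.769 to 28.2 CPM at SAH 1d and at 0.242 CPM or less at SAH 7d, a log2 fold change of -5.99 (SE 1.20, edgeR adjusted p = 0.0307). Faslg, the ligand of Fas, was at 0.332 to 0.769 CPM at SAH 1d and at 0.0910 to 0.303 CPM at SAH 7d, with a log2 fold change of -1.73 (SE 0.37, edgeR adjusted p = 0.0431). The groups were apart for both genes, but Faslg rested on 3 to 25 counts per library. Faslg kept its call in 1 of 12 fits with a library left out, that without SAH 7d-5, and had edgeR adjusted p of 0.0605 to 0.114 in the others. Lif lost its call without SAH 1d-5, SAH 7d-1, SAH 7d-2, SAH 7d-3, SAH 7d-4 or SAH 7d-6, with adjusted p of 0.0566 to 0.0845, and was at -4.31 without SAH 1d-3. Without SAH 7d-5, 15 of 77 pathway genes were called, 14 of them lower, beside 5.22% of all tested genes called lower in that fit. Without both libraries 23 were called, of which 21 were lower, beside 7.52% of all tested genes.

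Finally, genes whose order over the 18 libraries was among the closest to that of each member were found by the mean difference in rank of log2 CPM, over 15280 genes with a symbol. The median of this measure over those genes was between 5.67 and 5.89 ranks. Closest to Tnfrsf1a were Cd63, Clic1 and Fgfr1, each with 0.889 ranks, and closest to Tnfrsf1b was B2m with 0.889, followed by Lcp2 and Slc15a3 with 1.00. For Tnfrsf12a they were Cnn3 (1.00), Stk40 (1.33) and Trim47 (1.33), for Ltbr Tagln2 (1.00) and Tpcn2 (1.00), and for Fas Pla1a (0.889), C1rl (1.00) and Elf4 (1.11). Tnf was less closely matched, by Sox7 (1.61), Col4a2 (1.67) and Adam12 (1.72), as was Cd40, by Cela1 (1.56), Cip2a (1.78) and Rela (1.78). Tnfsf10 had Galnt5, Ifi44l and RT1-T24-1 at 2.44, and Tnfrsf9 had Cdh24 at 2.33 and Pygm at 2.44. All of these points share library, group and depth, so the measure describes order only.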

How the data were processed

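RNA of 18 rat cortex libraries was sequenced. Per the submitters' processing notes, fastp, HISAT2 and DESeq2 1.16.1 were used, and the paper names the Rnor_6.0 genome whereas the labels name mm9. The counting program is not given in the sources used here. Its use of strand is likewise unknown, so reads of overlapping or near-identical genes could be misassigned. The deposited count of a gene in a library is an unnormalized whole number, and 8685 rows are loci outside the annotation. The deposited FPKM values were scaled by the authors to transcript length and mapped reads. Replicates were not pooled.

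Counts were tested with edgeR 4.0.16 in R 4.3.3 (TMM, filterByExpr on all 18 libraries, two-sided quasi-likelihood F test on the 12 libraries of each comparison), with Benjamini-Hochberg adjustment over 18444 genes. SE is the log2 fold change divided by the root of F, and intervals of 95% are 1.96 SE on each side. A gene was called at an adjusted p under 0.05. Medians, ranges, marker sums and promoter motifs were computed in Python 3.11.15 with pandas 2.3.3. The scripts were tested on simulated data. Each rat gave 1 library, so the spread is between rats.

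The members and gene lists were chosen with earlier results of these data known. All 9 members are named, and from each list at most the 6 called genes with the largest change per comparison, plus for each member the 3 genes closest in rank, some of which are not reported here. Cyld, Tnfsf12, Rel, Nfkb1 and Rela are outside this rule. Tnfrsf10b, Ccr2, Cd79a and Pecam1 were not analysed here. Alternatives were DESeq2 size factors, the DESeq2 1.42.0 Wald test, limma 3.58.1 on log2(FPKM + 1) or log2(FPKM + 0.1) for genes with a mean FPKM of 0.5 or more and with no filter, no filter on counts, all 18 libraries in 1 fit, a replicate block, and each library left out.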

Additional observations from a re-analysis of the deposited data

Results flagged for a closer look

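Of the 27 combinations of a member and a group, 15 held 1 library whose distance to its nearest neighbour was a large share of the group's range by Dixon's 95% criterion. For independent groups of normally distributed values chance gives about 1 in 20, but these are CPM values and the members share the same 18 libraries, so the count cannot be set against that rate. SAH 7d-5 accounted for 7 of these. It was the high library of SAH 7d for Tnf (2.36 CPM, others at most 0.152), Tnfrsf1a (114 CPM, others at most 24.4), Tnfrsf1b (39.2 CPM, others at most 5.34), Tnfrsf12a (4.96 CPM, others at most 2.09), Cd40 (10.7 CPM, others at most 2.57), Fas (9.74 CPM, others at most 3.55) and Ltbr (73.8 CPM, others at most 24.6). SAH 1d-3 was the high library of SAH 1d for 3, namely Tnfrsf1b (14.4 CPM, others at most 3.54), Tnfrsf12a (58.1 CPM, others at most 17.0) and Ltbr (47.5 CPM, others at most 29.4).

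In sham, sham-1 was high for Tnfrsf1a (20.5 CPM, others at most 13.0) and Ltbr (18.6 CPM, others at most 13.5). Low libraries were sham-5 for Tnfrsf1b (0.992 CPM, others at least 1.82), sham-2 for Cd40 (0.484 CPM, others at least 0.833) and SAH 1d-4 for Cd40 (1.29 CPM, others at least 2.29).

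The change of Tnfrsf12a from sham was smaller at SAH 7d than at SAH 1d by 2.98 on the log2 scale (a difference of -2.98, SE 0.66, edgeR adjusted p = 0.0457), which is the direct comparison of the 2 times.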

How the results depend on the processing

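Of 555 alternative log2 fold changes of single members, 503 kept their direction and their side of the threshold. They include SAH 7d versus sham, where edgeR called 0 of 18444 genes, so staying uncalled there says little. The call of Tnfrsf12a in SAH 7d versus SAH 1d was kept in 9 of 21 alternatives. Members called in SAH 1d versus sham were 7, 6 with the DESeq2 Wald test and with each limma setting, 6 to 7 with a library left out and 3 with all 18 libraries in 1 fit. In that last fit the calls over all tested genes fell from 4684 to 2462. In SAH 7d versus sham the members called stayed at 0, and the pathway genes called were 0 except for 9 with DESeq2. In SAH 7d versus SAH 1d, members called were 1, 0 without a count filter, 0 to 4 with a library left out and 4 without the pair SAH 1d-3 and SAH 7d-5. For pathway genes called there the count was 2, 8 with DESeq2, 1 with limma on log2(FPKM + 1) with or without a filter, 4 with a pseudocount of 0.1, 1 without a count filter, 5 with all 18 libraries, 0 to 15 with a library left out and 23 without both. The cause of these shifts was not tested.

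Directions changed for 5 members. In SAH 7d versus sham, Tnf ran from -1.37 to 1.48 and Tnfsf10 from -0.17 to 0.32 with a library left out, and they were -1.37 and -0.17 without both. In SAH 7d versus SAH 1d, Tnfrsf1b ran from -0.63 to 1.55, Cd40 from -0.89 to 0.50 and Fas from -0.64 to 0.15. Cd40 was also -0.21 in limma at a pseudocount of 1, filtered or not, -0.58 at 0.1 and -0.86 without both. Fas was -0.0031 with DESeq2 size factors, -0.0033 with DESeq2, -0.14 in limma at a pseudocount of 1, -0.31 at 0.1, -0.0058 with all 18 libraries and -0.50 without both.

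Groups share replicate numbers but not rats, and deviations of same-numbered libraries correlated between -0.252 and 0.197, so the numbers were not taken as pairs. A replicate block gave 7, 0 and 0 members called in the 3 comparisons and 0 pathway genes called in SAH 7d versus SAH 1d, with -0.53 for Tnf in SAH 7d versus sham and -0.64 for Cd40 and -0.31 for Fas in SAH 7d versus SAH 1d. It moved Tnfrsf12a there to -2.56 (edgeR adjusted p = 0.104). DESeq2 gave no adjusted p for Tnfrsf1b in any comparison, for Tnfrsf1a in the 2 at SAH 7d or for Tnf in SAH 7d versus sham. Tnf was below the filter of limma, and its counts of 2 to 12 in sham limit its precision.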
